A study of Homo sapiens with 6 samples.

Results

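The RNA of 9 genes of MHC class I antigen presentation was followed in NB4 cells: the heavy chains HLA-B, HLA-C and HLA-E, the light chain B2M, the transport and loading genes TAP1, TAP2 and TAPBP, and the immunoproteasome subunits PSMB8 and PSMB9. They were chosen by gene symbol among the 23368 symbols of the count tables, and all 9 were among the 13209 genes with enough counts to be tested.

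NB4 is an established human cell line of acute promyelocytic leukemia, a blood cancer of immature granulocyte precursors. Maltonis is a synthetic molecule made from maltol. The libraries came from not treated (n.t.) NB4 cells and from NB4 cells kept for 24 h with 10 µM maltonis, with 3 libraries per group, and no other treatment is named for either group. All 6 libraries are of 1 cell line, so the spread between them is that between cultures or preparations of this line and not between patients.

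MHC class I molecules show fragments of a cell's own proteins to cytotoxic T cells and natural killer cells. Proteins are cut by the proteasome, in which interferon-inducible immunoproteasome subunits can take the place of the constitutive ones, and the peptides are carried into the endoplasmic reticulum by the TAP1 and TAP2 transporter. There tapasin, the product of TAPBP, holds an empty heavy chain paired with beta-2 microglobulin, the product of B2M, next to the transporter until a peptide binds. In many cell types interferons raise the transcription of most of these genes, through interferon-stimulated response elements and, for heavy chains and B2M, through the SXY promoter module bound by the NLRC5 complex.

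Library totals ran from 18492154 to 38205483 reads on genes, and the floor of 3 counts lay between 0.0785 and 0.162 CPM (counts scaled to the library size, which for the values of genes includes the TMM factor). Replicate 1 of both groups carries a different code in its library name than replicates 2 and 3, with no meaning stated, so values within each code are given too. All 10 markers of promyelocytic cells were tested, and 4 were higher (AZU1, CTSG, ELANE and KIT), 5 lower (MPO, CD33, ANPEP, CEBPA and CEBPE) and 1 not called, while 31.9% of all genes tested were higher and 32.1% lower. The summed level of the 10 markers, 14610 to 17076 CPM in n.t. and 9030 to 9577 CPM in maltonis libraries, was mostly MPO, at 12892 to 15528 and 7298 to 7553 CPM. Markers of other cell types were near 0 (at most 0.0533 CPM summed over 4 erythroid genes) or present in part, and several were lower in maltonis libraries. The summed T cell list of 4 genes lay at 49.0 to 51.6 CPM in n.t. and 18.1 to 19.0 CPM in maltonis libraries. Most of it was CD3D, at 42.9 to 44.8 and 14.9 to 15.8 CPM. CD8A was at 6.09 to 6.71 and 2.57 to 3.77 CPM, while CD3E was at 0.0597 CPM or less. The B cell list of 4 genes lay at 19.2 to 29.03 and 10.0 to 12.5 CPM. It was mostly CD79B, at 17.1 to 25.8 and 8.84 to 11.4 CPM, with MS4A1 at 0. The monocyte and macrophage list of 4 genes lay at 5.49 to 12.6 and 12.1 to 13.2 CPM. It was mostly CSF1R, at 5.27 to 12.2 and 11.5 to 12.5 CPM, with MRC1 at 0. The fibroblast list of 4 genes summed to 0.580 to 0.844 and 0.0355 to 1.24 CPM, and the epithelial list of 4 genes to 16.0 to 17.6 and 10.2 to 12.8 CPM, all of it from EPCAM. The part of these shifts in the results below was not tested.

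Short stretches of the promoters are shown first, because elements that bind interferon-responsive factors are part of how these genes are known to be controlled. Windows from 250 bases before to 50 bases after a transcription start were at hand for 8 of the 9 genes, from RefSeq on GRCh38.p14, and HLA-E had none. Each window was searched on both strands for GAAA, any 2 bases and GAAA again, the core of the interferon-stimulated response element (ISRE), for AA, any 2 bases and GAAA, a shorter core of sites for interferon regulatory factors that every ISRE core holds, and for GATTGG, the Y box of the SXY module. Capitals mark those matches, and lines run 5′ to 3′ in the sense of the gene, so that a match on the other strand appears as its reverse complement, with TTTC in place of GAAA and CCAATC in place of GATTGG. The 3 stretches of heavy and light chain genes lie at chr6:31357218-31357359 (minus strand, HLA-B), chr6:31272131-31272268 (minus strand, HLA-C) and chr15:44711348-44711484 (plus strand, B2M).
HLA-B: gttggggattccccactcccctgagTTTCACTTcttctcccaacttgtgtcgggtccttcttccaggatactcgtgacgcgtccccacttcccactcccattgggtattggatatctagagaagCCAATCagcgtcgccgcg
HLA-C: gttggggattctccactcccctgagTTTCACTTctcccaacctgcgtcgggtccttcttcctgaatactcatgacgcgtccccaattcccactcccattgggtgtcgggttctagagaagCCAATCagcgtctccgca
B2M: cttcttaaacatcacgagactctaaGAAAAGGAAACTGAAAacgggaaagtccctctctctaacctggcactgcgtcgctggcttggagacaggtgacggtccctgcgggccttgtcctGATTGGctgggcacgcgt

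In HLA-B and HLA-C the short core and the Y box stood in the same order and at nearly the same distances from the start, at 155 and 151 bases before it for the first base of the short core and at 56 bases before it for the Y box in both. Only B2M of these 3 had the full ISRE core, in a run of 2 overlapping matches. The stretches of the transporter, tapasin and immunoproteasome genes hold ISRE cores at chr6:32853811-32853863 (TAP1), chr6:32838776-32838826 (TAP2), chr6:33314079-33314123 (TAPBP) and chr6:32844042-32844076 (PSMB8, at the more downstream of its annotated starts), all on the minus strand.
TAP1: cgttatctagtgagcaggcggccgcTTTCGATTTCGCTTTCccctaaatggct
TAP2: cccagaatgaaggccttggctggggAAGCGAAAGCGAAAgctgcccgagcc
TAPBP: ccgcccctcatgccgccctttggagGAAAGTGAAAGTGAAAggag
PSMB8: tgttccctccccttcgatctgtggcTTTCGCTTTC

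The ISRE core was found in 5 of the 8 genes (B2M, TAP1, TAP2, TAPBP and PSMB8), and in 3.57% of 35116 human promoter windows of the same length. The short core was found in 7 of 8, all but PSMB9, and in 22.8% of all windows. It was added as a motif after these sequences had been read, so the 2 shares cannot be weighed against each other. GATTGG was found in HLA-B, HLA-C and B2M and in 15.1% of all windows. Genes were counted by a match in any of their windows, 10 for the 8 genes, while the shares of all windows are per window. The core of gamma-activated sequences, TTC and GAA with any 3 bases between, was found in 2 of the 8 genes and in 7.66% of all windows, and a loose core of NF-kB sites, GGG and CC with any 5 bases between, in 6 of 8 and in 58.7% of all windows. PSMB9 had neither interferon core in its own window. It is transcribed away from TAP1, with 488 bases between their starts, and the ISRE matches of the TAP1 promoter lie 354 to 369 bases before the PSMB9 start.

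Maltonis-treated cells had more RNA of all 3 heavy chains, of TAP1 and of PSMB9, while B2M, TAP2, TAPBP and PSMB8 did not pass the test. At a false discovery rate (FDR) under 0.01 in edgeR's quasi-likelihood test, 5 of the 9 genes were higher and 0 were lower, while 31.9% of all genes tested were higher and 32.1% lower. The median log2 fold change (FC) of the 9 genes was 0.82, beside 0.014 over all genes tested. At FDR under 0.05, 6 were higher and 1 lower (B2M and PSMB8 in addition), with 37.2% and 36.8% of all genes tested. None of the 9 reached the larger fold change that the study required of a regulated gene, which at FDR under 0.01 was passed by 9.96% of tested genes upward and 10.4% downward, and by 1.55% and 3.18% with the RPKM (CPM per kilobase of exon) above 10 that it also required. In RNA from whole cultures, more RNA per cell and more cells that hold it cannot be told apart.

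HLA-B, a classical heavy chain, had 133, 124 and 117 CPM in n.t. replicates 1, 2 and 3 and 288, 264 and 254 CPM in the maltonis replicates. Every maltonis library was above every n.t. library, with a log2(FC) of 1.11 (SE 0.0725, adjusted p = 1.78e-06). HLA-C, the second classical heavy chain of the list, had 97.6, 87.1 and 88.7 CPM in n.t. and 215, 179 and 170 CPM in maltonis libraries. The groups again did not overlap, and log2(FC) was 1.05 (SE 0.0952, adjusted p = 1.32e-05). HLA-E, a heavy chain with little variation between people that presents leader peptides of other class I chains to natural killer cell receptors, had 202, 185 and 174 CPM in n.t. and 354, 328 and 311 CPM in maltonis libraries. Its log2(FC) was 0.82 (SE 0.0753, adjusted p = 1.35e-05), with no overlap of the groups.

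B2M, the light chain that every class I heavy chain needs to reach the surface, was the most abundant of the 9 and had 1040, 1047 and 1002 CPM in n.t. and 1070, 1186 and 1251 CPM in maltonis libraries. All 3 maltonis libraries were above the n.t. ones, but replicate 1 by little, and the log2(FC) of 0.18 (95% interval 0.025 to 0.34) did not pass the threshold (adjusted p = 0.0389). Its log2(FC) was 0.040 between the replicates 1 and 0.25 within replicates 2 and 3, where edgeR's test gave an adjusted p of 0.00195. Without maltonis replicate 1 the value was 0.22 (adjusted p = 0.00806), and without maltonis replicate 3 it was 0.11 (adjusted p = 0.23). The upper end of the interval lies below the lower ends for HLA-B (0.94), HLA-C (0.83) and HLA-E (0.65).

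**Figure D1:**
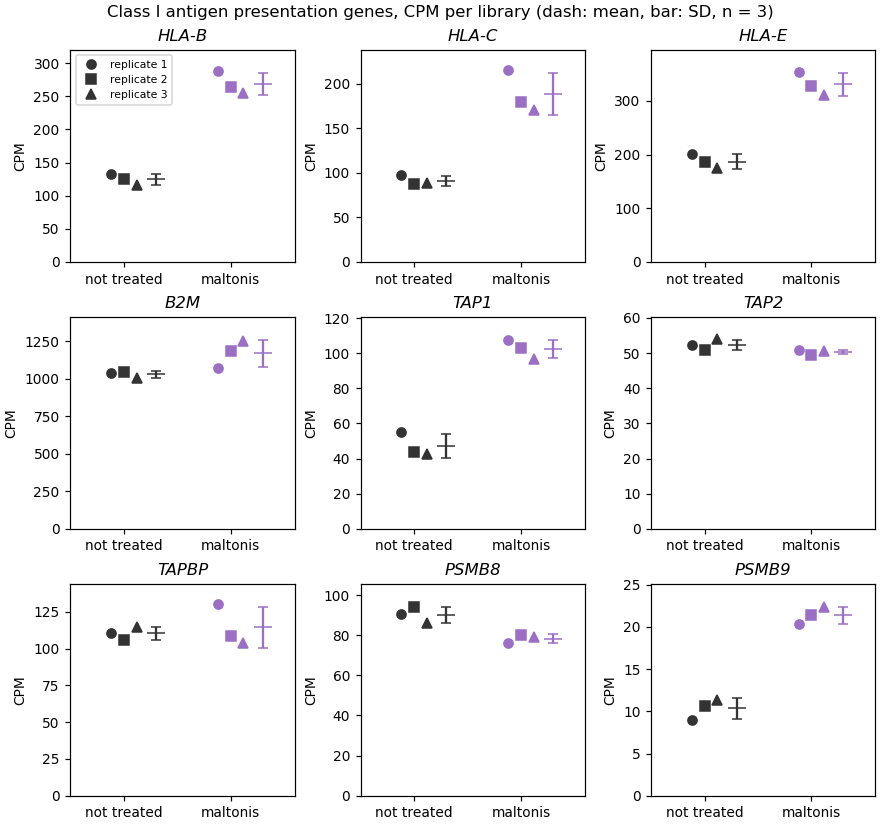
Level in CPM (vertical axis from 0) of each of the 9 genes in the 3 not treated (black) and 3 maltonis (lilac) libraries, with the mean and SD beside the points and replicates 1, 2 and 3 as circle, square and triangle. The groups are wide apart for HLA-B, HLA-C, HLA-E, TAP1 and PSMB9, and close or mixed for B2M, TAP2, TAPBP and PSMB8.

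Of the 2 chains of the transporter, TAP1 rose and TAP2 did not pass the test. TAP1 had 55.0, 43.9 and 42.3 CPM in n.t. and 107, 103 and 96.8 CPM in maltonis libraries, all of them above the n.t. ones, with a log2(FC) of 1.13 (SE 0.102, adjusted p = 1.32e-05). TAP2 had 52.3, 50.8 and 53.9 CPM in n.t. and 50.8, 49.6 and 50.5 CPM in maltonis libraries. Its maltonis libraries lay at or just below the lowest n.t. library, and the log2(FC) of −0.057 (95% interval −0.19 to 0.080, adjusted p = 0.408) turned to 0.061 with total-count and to 0.029 with upper-quartile scaling. TAPBP had 111, 106 and 115 CPM in n.t. and 131, 109 and 104 CPM in maltonis libraries, so the groups overlapped. Its log2(FC) was 0.051 (95% interval −0.15 to 0.26, adjusted p = 0.619), with 0.24 between the replicates 1, −0.054 within replicates 2 and 3 and −0.075 without maltonis replicate 1.

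Of the immunoproteasome subunits, PSMB9 (beta1i) rose and PSMB8 (beta5i) did not pass the test. PSMB9 had 9.002, 10.7 and 11.4 CPM in n.t. and 20.3, 21.4 and 22.4 CPM in maltonis libraries. The groups did not overlap and log2(FC) was 1.04 (SE 0.101, adjusted p = 2.06e-05). PSMB8 had 90.4, 94.2 and 86.2 CPM in n.t. and 76.0, 80.1 and 79.0 CPM in maltonis libraries. All 3 maltonis libraries were below the n.t. ones, and the log2(FC) of −0.20 (95% interval −0.34 to −0.067) missed the threshold with an adjusted p of 0.0132. It passed when the library code was a term in the fit (adjusted p = 0.00527), when n.t. replicate 3 was left out (log2(FC) −0.24, adjusted p = 0.00953) and in DESeq2 (adjusted p = 0.00587), and its log2(FC) was −0.086 with total-count scaling (adjusted p = 0.214).

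For the 5 genes called higher, log2(FC) was above 0 within both codes. Except for TAP1 between the replicates 1 (0.97, with 1.13 pooled), it was near the pooled value. The log2(FC) was 1.11 between the replicates 1 and 1.10 within replicates 2 and 3 for HLA-B, 1.14 and 0.99 for HLA-C, 0.81 and 0.83 for HLA-E, 0.97 and 1.21 for TAP1, and 1.17 and 0.99 for PSMB9. For 6 of the 9 genes all 3 maltonis libraries were above the n.t. ones and for 2 all 3 were below, which held for 38.8% and 37.8% of all genes tested. Set beside the promoter stretches, 1 of the 5 genes with an ISRE core within its window (TAP1) was called higher, beside 31.9% of all genes tested. Both heavy chains with only the short core and PSMB9 with neither were called higher too, and HLA-E, also called higher, had no window. The part of these elements in the changes was not tested.

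Ratios of 2 genes within a library do not depend on the scaling and show how the parts of each complex shifted against each other. Of 9 ratios compared, 7 had groups that did not overlap. For single genes tested, all 3 maltonis libraries were above the n.t. ones in 38.8% and below in 37.8%. The share over other gene pairs was not computed. Each of the 7 ratios had a two-sided exact permutation p of 0.1, the smallest that 3 against 3 libraries allow, so no ratio could pass 0.05 (adjusted p = 0.129 over the 9). Counts of TAP1 were 1.05, 0.864 and 0.785 times those of TAP2 in n.t. and 2.11, 2.08 and 1.92 times in maltonis libraries. The ratio was 2.28 times as high in maltonis as in n.t. libraries, a log2 difference of 1.19. HLA-B counts were 0.128, 0.119 and 0.116 of those of B2M in n.t. and 0.269, 0.223 and 0.203 in maltonis libraries, with log2 differences of 0.93 for HLA-B, 0.86 for HLA-C and 0.64 for HLA-E against B2M.

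PSMB9, PSMB8 and PSMB10 encode the immunoproteasome subunits that take the places of PSMB6, PSMB5 and PSMB7. PSMB9 counts were 0.0887, 0.0806 and 0.0891 of those of PSMB6 in n.t. and 0.290, 0.282 and 0.305 in maltonis libraries, 3.40 times the n.t. ratio. PSMB10 counts were 0.419, 0.358 and 0.348 of those of PSMB7 in n.t. and 1.02, 0.956 and 0.930 in maltonis libraries, 2.59 times the n.t. ratio. The third pair went the other way, since PSMB8 counts were 0.490, 0.499 and 0.461 of those of PSMB5 in n.t. and 0.365, 0.367 and 0.356 in maltonis libraries, 0.751 of the n.t. ratio. All 3 ratios had groups that did not overlap. The constitutive subunits moved too, with log2(FC) of −0.72 for PSMB6, 0.21 for PSMB5 and −0.11 for PSMB7 (not called). The ratios are therefore not changes of the immunoproteasome subunits alone.

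Ratios within the other 2 pairs overlapped between groups. HLA-B counts were 1.316 to 1.43 times those of HLA-C in n.t. and 1.33 to 1.50 times in maltonis libraries (log2 difference 0.066, exact permutation p = 0.3). TAP1 counts were 3.71 to 6.09 times those of its neighbour PSMB9 in n.t. and 4.32 to 5.28 times in maltonis libraries (log2 difference 0.078, exact permutation p = 0.7). The latter difference was −0.067 without n.t. replicate 3.

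**Figure D2:**
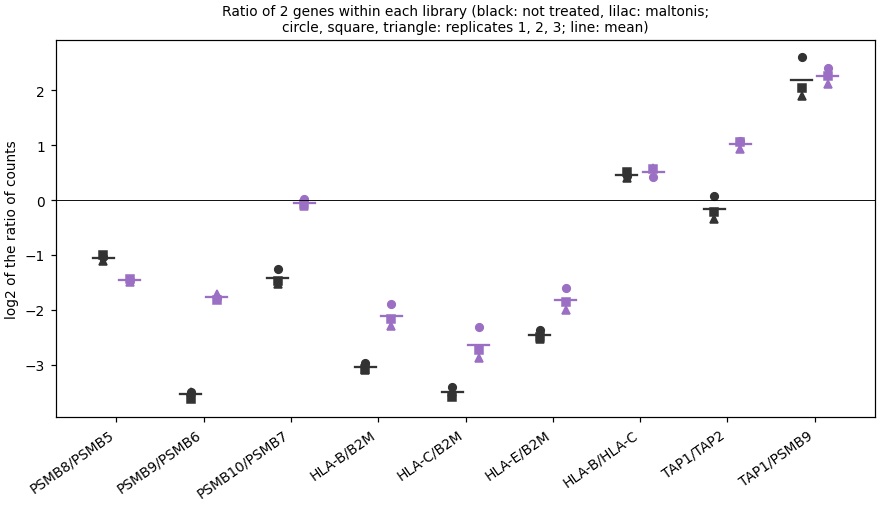
Log2 of the ratio of the counts of 2 genes in each library (vertical axis, no scaling), for 9 pairs, with the mean as a line. PSMB9/PSMB6, PSMB10/PSMB7, TAP1/TAP2 and each heavy chain against B2M are higher in maltonis libraries, PSMB8/PSMB5 is lower, and HLA-B/HLA-C and TAP1/PSMB9 overlap.

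Levels of different genes were compared per length, as RPKM over all annotated exons of a gene. In n.t. cells B2M led with 169 RPKM ± 3.95 (SD, n = 3), followed by HLA-E with 62.9 ± 4.68, HLA-B with 40.9 ± 2.71, HLA-C with 36.4 ± 2.26, PSMB8 with 30.1 ± 1.34 and TAPBP with 21.8 ± 0.878. The transporter genes and PSMB9 were lowest, TAP1 with 9.79 RPKM ± 1.43, TAP2 with 8.19 ± 0.239 and PSMB9 with 3.37 ± 0.399. Only the ranges of HLA-B and HLA-C overlapped among neighbours in this order.

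Over all exons, the order of mean RPKM was the same in maltonis-treated cells, with B2M at 192 RPKM ± 15.1, HLA-E at 111 ± 7.25, HLA-B at 88.1 ± 5.57, HLA-C at 75.1 ± 9.54, PSMB8 at 26.1 ± 0.697, TAPBP at 22.6 ± 2.82, TAP1 at 21.3 ± 1.11, TAP2 at 7.87 ± 0.101 and PSMB9 at 6.97 ± 0.335 (SD, n = 3). There HLA-B overlapped with HLA-C, PSMB8 with TAPBP and TAPBP with TAP1. The order depended on the length. Divided by the length of 1 transcript per gene, HLA-B (80.6 RPKM) stood before HLA-E (71.9 RPKM, ranges overlapping) in n.t. cells. PSMB9 (13.1 RPKM) stood before TAP2 (9.21 RPKM) there, while B2M stayed first with 604 RPKM. By that length the order differed between the groups. PSMB8 (66.8 RPKM) stood before HLA-C (58.7 RPKM) in n.t. cells, with ranges apart, and after it in maltonis-treated cells (58.0 and 121 RPKM). TAPBP stood before TAP1 in n.t. cells and after it in maltonis-treated cells (30.4 and 34.6 RPKM, ranges overlapping).

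**Figure D3:**
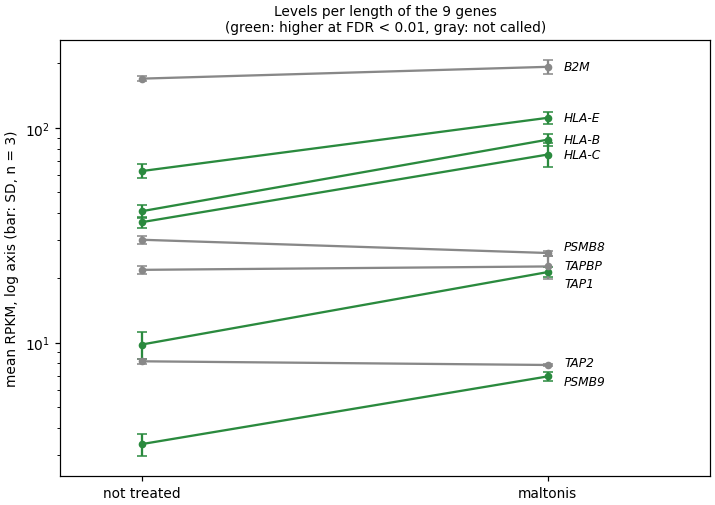
Mean RPKM over all exons (vertical log axis, bars are SD, n = 3) of the 9 genes in not treated and maltonis libraries, green where called higher and gray where not called. B2M is at the top with 169 and 192 RPKM, and TAP1 moves from 9.79 RPKM near TAP2 to 21.3 RPKM near TAPBP and PSMB8.

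Of 13 other class I and class I-like genes 10 were tested, and 5 were higher (50% of those tested, beside 31.9% of all genes), 0 lower and 5 not called, with a median log2(FC) of 0.81. The list includes the heavy chain pseudogenes HLA-H and HLA-J, tested and not called, and HLA-L, not tested. FCGRT, the heavy chain of the neonatal Fc receptor, which also pairs with B2M, had a log2(FC) of 1.92, MICA, a stress ligand of the NKG2D receptor, 0.99, and MR1, which presents vitamin B metabolites, 0.97. HFE, a class I-like regulator of iron uptake, went from 0.213, 0.221 and 0.271 CPM to 22.6, 27.6 and 27.2 CPM (log2(FC) 6.74, adjusted p = 2.42e-08), on 4, 8 and 9 counts in the n.t. libraries. Among those not called were MICB, a second NKG2D ligand, with a log2(FC) of −0.049 that was 0.070 with total-count scaling, and CD1D, which presents lipids, with −0.12 that was 4.3e-05 with total-count scaling. HLA-F was between 0 and 0.155 CPM in all 6 libraries and was not tested.

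Of 14 genes of peptide supply, all tested, 5 were higher, 4 lower and 5 not called, with a median log2(FC) of 0.018. These shares, 35.7% higher and 28.6% lower, were near those of all genes tested, 31.9% and 32.1%. PSMB10 (beta2i) had a log2(FC) of 1.27, and the aminopeptidases ERAP2, LAP3 and ERAP1, of which the ERAPs trim peptides inside the endoplasmic reticulum, had 0.86, 0.67 and 0.44. PSMB5 passed with a log2(FC) of 0.21 (adjusted p = 0.0061), but not in 5 of the 6 fits that left out 1 library. Lower were THOP1, a cytosolic peptidase that destroys peptides (log2(FC) −2.10), PSMB6 (−0.72), the proteasome assembly factor POMP (−0.65) and the peptidase TPP2 (−0.45). PSMB7 was not called, with a log2(FC) of −0.11 that was 0.014 with total-count scaling, nor were PSME1 and PSME2 of the proteasome activator, with 0.17 and 0.14.

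Chaperones of loading and folding were mostly lower. Of 7 genes, 4 were lower (57.1%, beside 32.1% of all genes), 1 higher and 2 not called, with a median log2(FC) of −0.30, and only 2 were lower with total-count or upper-quartile scaling or without n.t. replicate 2. CALR, calreticulin of the loading complex, had a log2(FC) of −1.003 (adjusted p = 2.74e-06), CANX, calnexin, which folds new heavy chains, −0.35, and PDIA3, which is bound to tapasin in the loading complex, −0.30. HSPA5, the general chaperone BiP, had 226, 447 and 597 CPM in n.t. and 142, 214 and 213 CPM in maltonis libraries. Its log2(FC) of −1.16 (adjusted p = 0.0086) lost its call without n.t. replicate 2 or 3 and without any one of the maltonis libraries (adjusted p at most 0.0454). TAPBPL, a tapasin relative that edits peptides outside the loading complex, was the one that rose, from 5.43, 3.86 and 4.40 to 15.1, 15.8 and 15.8 CPM, with a log2(FC) of 1.79.

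Among 21 tested regulators of class I or of interferon signalling, 12 were higher (57.1%, beside 31.9% of all genes), 6 lower (28.6%, beside 32.1%) and 3 not called, with a median log2(FC) of 0.38. The list is not limited to transcription and signalling, and the 12 include TMEM127 and WWP2, with log2(FC) of 0.65 and 0.76. These counts take no account of whether a gene raises or lowers class I. NLRC5, the class I transactivator, had 166, 142 and 146 CPM in n.t. and 205, 194 and 191 CPM in maltonis libraries, with a log2(FC) of 0.38 (adjusted p = 0.0013). Its partners on the SXY module moved in both directions, with RFX5 at a log2(FC) of 0.92 and RFXANK at 0.87, but CREB1 at −1.17, NFYB at −0.81 and NFYA at −0.66. IRF9 and STAT2, which take part in the factor that binds the ISRE, had log2(FC) of 2.90 and 1.80, and IRF1 had 0.45. The chains of the interferon-gamma receptor parted, with IFNGR1 at 0.63 and IFNGR2 at −1.08, as did its kinases, with JAK2 at 0.34 and JAK1 at −0.37. The NF-kB subunits RELA and NFKB1 had 0.51 and −0.29. The calls of NFYA and NFKB1 were each lost in 5 of the 6 fits without 1 library, and that of JAK2 without maltonis replicate 2 or 3.

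The class II pathway, which presents peptides to helper T cells and is normally found in professional antigen-presenting cells, was mostly at or near the detection floor. Of 13 genes 4 were tested, and HLA-DMA and CTSS were higher. HLA-DMA had 0.639, 0.80 and 0.422 CPM in n.t. and 6.61, 4.83 and 4.79 CPM in maltonis libraries (log2(FC) 3.09, adjusted p = 5.37e-06), and CTSS, cathepsin S, had a log2(FC) of 0.81. HLA-DRA was at most 0.121 CPM and CIITA, the class II transactivator, at most 0.209 CPM in any library. Without maltonis replicate 3, 4 genes of this list were called higher.

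**Figure D4:**
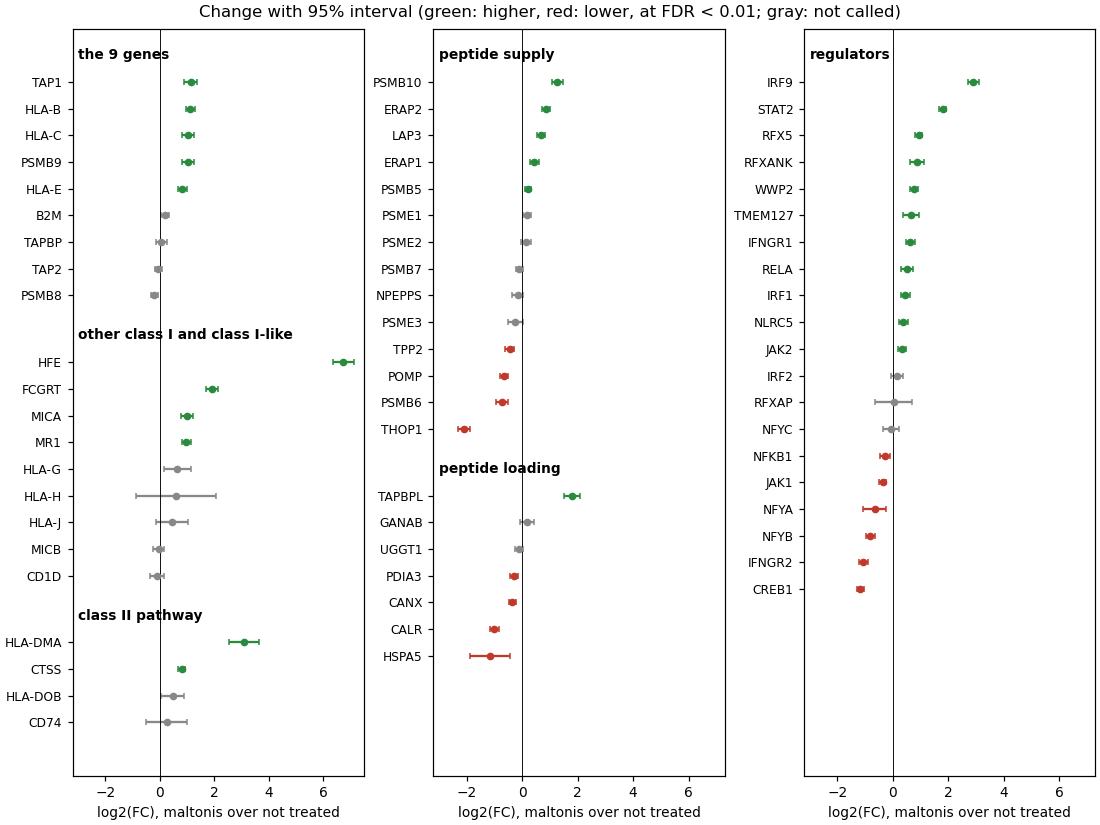
Log2(FC) of maltonis over not treated (horizontal axis) with its 95% interval for the 9 genes and for genes of 5 related lists, green where higher, red where lower and gray where not called at FDR under 0.01. HFE lies far to the right at 6.74, THOP1 is at −2.10, and the loading chaperones lie mostly left of 0.

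Genes near the median profile of the 9 were sought outside these lists. Nearness was the Euclidean distance over the 6 libraries, on log2 CPM relative to the n.t. mean. The 9 did not share 1 pattern, since 5 were called higher and 4 were not called. Their median log2(FC) of 0.82 is that of HLA-E, so the median profile does not stand for each of them. The median profile lay at 0.92, 0.81 and 0.74 in maltonis replicates 1, 2 and 3. The 5 nearest genes were ADNP2 (distance 0.0370), KLHL22 (0.0547), CDC20 (0.0659), POLA2 (0.0784) and ATG16L2 (0.0787), with log2(FC) between 0.80 and 0.86.

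Similar and overlapping genes limit how well counts can be given to 1 gene. Of the 50-base windows in 1 transcript of each gene, 2.54% of HLA-B, 6.71% of HLA-C and 5.13% of HLA-E were found in another gene, mostly another heavy chain or a heavy chain pseudogene. TAP2 shared 35.8% of its windows with an annotated gene on its own strand that spans it, and PSMB9 shared 12.1% with PSMB8-AS1 and PSMB10 38.9% with the annotated gene AC040162.1, so that its level and its ratio to PSMB7 are uncertain too, while B2M and PSMB8 shared none. PSMB8, PSMB9 and TAP1 overlap in the annotation on opposite strands, and the strand setting of the counting is not given in the sources used here, so their counts are uncertain to that extent. HLA-B and HLA-C overlap each other in the annotation on the same strand, which no strand setting separates.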

How the data were processed

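RNA-seq libraries of ribosomal RNA-depleted total RNA were prepared by the authors with a stranded kit from 3 not treated and 3 maltonis-treated NB4 cultures. The authors deposited HTSeq counts, whole numbers of reads per gene symbol without normalization. The submitters' processing notes name hg19, TopHat and Bowtie2, while versions, annotation and strand setting are not given in the sources used here. Reads from heavy chain alleles that differ from the reference can be lost in such an alignment.

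Groups and replicate numbers follow the sample titles. The number is not stated to mark a shared culture, and deviations of same-numbered libraries correlated at 0.301, 0.085 and 0.161, so libraries were not paired. Replicates differed by more than sampling noise (chi-square per degree of freedom 4.15 to 33.1), and p-values measure the spread between these libraries. Counts were fitted in R 4.3.3 with edgeR 4.0.16 (TMM, filterByExpr, quasi-likelihood test, no covariates), with Benjamini-Hochberg adjustment over the 13209 genes tested, and called at FDR under 0.01. All adjusted p-values of single genes are from this fit unless another is named. On simulated counts of this comparison with 13085 genes, 195 of 200 genes changed by a log2 of 1 were recovered. RPKM used GENCODE 29 exon lengths, found for 20194 symbols directly and 1470 by synonym. Gene positions, strands and types for the overlaps, and transcript sequences for the shared windows, were also taken from GENCODE 29. Ratios had a prior of 0.5 counts and exact permutation tests in scipy 1.17.1. Other tools were DESeq2 1.42.0, Python 3.11.15, pandas 2.3.3, numpy 2.4.6 and matplotlib 3.10.9. Promoter windows are from RefSeq (GRCh38.p14), and AANNGAAA was added as a motif after the promoter sequences had been read.

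The 9 genes, the related lists and the alternatives were chosen with earlier results of these data known. Genes named are the 9, members of the related lists and of the marker lists (promyelocytic, T cell, B cell, monocyte and macrophage, erythroid, fibroblast and epithelial), genes overlapping the 9, and the 5 genes of most similar pattern. Values of some members of the related lists are not reported here, although the counts and medians of the lists include them. Alternatives covered scaling, the test, filters, the replicate block, the library code, each library left out and, for the fold criterion, lengths and RPKM. Floors of 3 counts cover counting error only.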

Additional observations from a re-analysis of the deposited data

How the results depend on the processing

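The 5 genes called higher (HLA-B, HLA-C, HLA-E, TAP1 and PSMB9) kept direction and call under every alternative with a test. B2M was a 6th with total-count scaling (log2 fold change 0.30, adjusted p = 0.00299), upper-quartile scaling (0.27, adjusted p = 0.00679) and replicates 2 and 3 alone (0.25, adjusted p = 0.00195), without maltonis replicate 1, and at FDR under 0.05. The number lower was 1 instead of 0, PSMB8, with the replicate block (adjusted p = 0.0093), the code as a term, DESeq2 and FDR under 0.05. Block or not, no other of the 9 changed its call. Deviations of the replicates 1, which share a library code, correlated at 0.301, while n.t. replicate 2 correlated better with maltonis replicate 3 (0.123) than with its own number (0.085), and whether a number marks a shared culture is not stated. Total-count scaling shifted the median of all genes by 0.12. TAP2 reversed with total counts (0.061) and upper quartile (0.029), TAPBP within replicates 2 and 3 (−0.054) and on leaving out 1 library (range −0.075 to 0.090), PSMB7 with total counts (0.014), MICB with total counts (0.070), upper quartile (0.038) and on leaving out 1 library (range −0.12 to 0.011), CD1D with total counts (4.3e-05), and the TAP1/PSMB9 log ratio on leaving out 1 library (range −0.067 to 0.29). The number of loading genes called lower was 2 instead of 4 with total counts and with upper quartile, and class II genes called higher were 5 instead of 2 without a filter and 4 with DESeq2, which test more genes. Causes were otherwise not tested. Leaving out 1 library in turn gave 5 to 6 of the 9 genes higher and 0 to 1 lower, 2 to 4 loading genes lower and 2 to 4 class II genes higher. Over the 9 genes, 129 of 144 alternative values kept their direction and, where a test was run, their call. Size was not always kept (PSMB8 was −0.086 with total counts). Of the others, 8 passed the threshold in addition, 3 from the replicates 1 alone moved (B2M, TAP1 and TAPBP) and 4 reversed. Values from the replicates 1 alone had no test. They were judged by direction and by their distance from the main value, against the SD within groups. Depth limited HFE, HLA-F and most class II genes, at or near the floor in n.t. libraries.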
